A study of Mus musculus with 2 samples.

Results

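Oligodendrocyte precursor nuclei were picked out of 2 libraries of single-nucleus RNA sequencing from the mouse hippocampus at postnatal day 19, and numbered 1594 of the 48103 nuclei kept after filtering. The control library came from Cicflox/flox mice and the other, labelled knockout, from Emx1-Cre; Cicflox/flox mice, so that both carry the floxed allele of Cic, the gene of the transcriptional repressor Capicua. Emx1-Cre acts in the dorsal telencephalic lineage, which gives rise to hippocampal excitatory neurons, astrocytes and a part of the oligodendrocyte lineage, while microglia and hippocampal inhibitory neurons lie outside it. Each library pools 1 hippocampus from each of 3 littermates, 2 males and 1 female. With 1 library per genotype there is no replicate error and no test, and every interval below is a 95% interval that covers counting error only. A genotype difference, a difference between the pooled litters and a difference between library preparations cannot be told apart.

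Oligodendrocyte precursors are the dividing glia that carry the PDGF receptor alpha and the NG2 proteoglycan, and that leave the cycle to become committed precursors and then myelinating oligodendrocytes. Growth factor receptors of these cells signal through Ras and ERK, and ERK relieves repression by Capicua at genes such as the PEA3 group of ETS factors (Etv1, Etv4, Etv5) and the Sprouty, Spred and DUSP feedback inhibitors. Capicua thus holds these genes down where ERK signalling is low, and less where it is high. None of these data measure ERK activity.

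A nucleus counted as a precursor when it held at least 2 unique molecular identifiers (UMIs, one per counted transcript) of Pdgfra and Cspg4 together and at least 3 of Vcan and Lhfpl3. At most 1 of the committed-precursor genes Bmp4, Enpp6 and Gpr17 could be detected, none of the myelin-stage genes Mog, Mag and Aspa, and at most 1 UMI each of Gad1 with Gad2 and of Aqp4 with Gja1. At most 2 of the cycle genes Mki67, Top2a, Cenpf, Kif11 and Cenpe could be detected. The members were thus chosen by the measured counts of these 19 genes, whose values are a description and support nothing. Lhfpl3 had 33651 UMIs in the control members and 32419 in those of the library labelled knockout, Pdgfra 2762 and 2887, Vcan 4667 and 5140, and Cspg4 829 and 831. C1ql1, a precursor marker that the rule did not use, had 552 and 541 UMIs.

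C1ql1 stood at 98.1 CPM (UMIs of a gene scaled to a common total of the summed nuclei) in the control members and 96.6 in the others, against 5.98 and 7.39 CPM in the whole libraries. The 5 precursor markers together made up 7542 and 7468 CPM, most of it Lhfpl3, and none was at 0. Since the rule chose nuclei by 4 of these 5, their sum is a description and no check of the label. At the edge of the rule, 146 control members (19.7%) and 213 members of the library labelled knockout (24.9%) held exactly 2 UMIs of Pdgfra and Cspg4. Another 174 and 188 nuclei that met every other condition held 1 and stayed out. A single committed-precursor gene was detected in 298 members (40.3%) of the control and in 312 (36.5%) of the library labelled knockout, and 42 and 46 nuclei with 2 of these genes stayed out on that condition alone.

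The libraries held 314453640 and 252995761 UMIs. Members had a median of 5764.5 UMIs and 2473 genes in the control and 5080.5 UMIs and 2321.5 genes in the library labelled knockout, and summed to 5629714 and 5599640 UMIs. The 2 libraries shared 166 barcodes after filtering, and no barcode was a member in both. Scrublet, a caller of droplets with 2 nuclei, marked 122 control members (16.5%) and 140 of the others (16.4%), which the rule keeps. These droplets held 34.3% and 34.9% of the members' UMIs, so values without them stand beside the results. Markers of excitatory neurons summed to 620 CPM in the control members and 522 in the others, and to 245 and 182 CPM once called doublets were left out, with none of the 6 markers at 0. Mature oligodendrocyte markers summed to 258 and 217 CPM, astrocyte markers to 51.2 and 49.3, microglia markers to 124 and 131, and endothelial markers to 2.31 and 3.75, with Flt1, Cldn5 and Ly6c1 at 0 in the control and Ly6c1 in the other library. Pericyte markers summed to 1.78 and 4.11 CPM (Higd1b at 0 in both), fibroblast markers to 8.53 and 11.4, immature neuron markers to 136 and 166, and ependymal markers to 1.42 and 0.714. The inhibitory neuron markers summed to 1668 and 1926 CPM, nearly all from Adarb2, with 9292 and 10687 UMIs. The part of such RNA in the results below was not tested.

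Cic itself, which checks the labels, had 69 UMIs (12.3 CPM) in the control members and 86 UMIs (15.4 CPM) in the others. The log2 ratio, library labelled knockout over control, was 0.32 (−0.15 to 0.80), and 0.08 without called doublets. In the later stages of the lineage Cic had 45 and 41 UMIs in committed precursors (0.25, −0.40 to 0.89) and 332 and 386 in mature oligodendrocytes (0.70, 0.49 to 0.92). Among the other classes it had 0.12 (−0.45 to 0.67) in astrocytes, −0.08 (−0.50 to 0.33) in inhibitory neurons and −0.30 (−0.85 to 0.23) in microglia. No lower Cic signal was thus detected in the lineage of the library labelled knockout, and it was higher in mature oligodendrocytes. UMIs from outside a deleted part of the gene would not show a deletion. The library is therefore called by its label throughout. Atxn1 and Atxn1l, which encode corepressor partners of Capicua, had log2 ratios of 0.25 (0.17 to 0.33) and −0.47 (−0.96 to 0.01), the former 0.02 without called doublets.

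Precursors took a larger share of the library labelled knockout under the rule, though not clearly under a stricter one. They were 740 of 25060 nuclei in the control, or 2.95% (exact Clopper-Pearson interval 2.75 to 3.17), and 854 of 23043 in the library labelled knockout, or 3.71% (3.47 to 3.96). Sorting the pooled nuclei by Xist and Y-linked transcripts gave 3.03% and 3.89% in female nuclei, which come from 1 mouse per library, and 2.76% and 3.46% in male nuclei. No sex was called for 244 of the control members and 252 of the others. These held 76 of the 122 and 90 of the 140 called doublets, so the female and male sets hold fewer doublets than all members. Without called doublets the shares were 2.83% and 3.48%, and with every nucleus thinned to 2000 UMIs before the rule was applied they were 1.95% and 2.48%. The intervals of the libraries overlap in female nuclei and do not overlap for the other values above. Under a stricter marker rule (at least 4 UMIs of Pdgfra and Cspg4 and 6 of Vcan and Lhfpl3) the shares were 1.86% (1.69 to 2.03) and 2.01% (1.84 to 2.20), whose intervals overlap. Inhibitory neurons, outside the Cre lineage, also took a larger share, 2.59% (2.40 to 2.80) and 3.19% (2.97 to 3.42). The spread between mice is unknown.

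Within the oligodendrocyte lineage, precursors were a larger and mature oligodendrocytes a smaller part of the library labelled knockout. Of 2903 lineage nuclei in the control, 25.5% (23.9 to 27.1) were precursors, and of 2503 in the library labelled knockout 34.1% (32.3 to 36.0). Mature oligodendrocytes were 60.4% (58.6 to 62.2) and 51.5% (49.6 to 53.5). Committed precursors, which express Bmp4, Enpp6 and Gpr17, were 12.6% and 13.0%, with overlapping intervals. Taken among precursors and committed precursors alone, committed nuclei were 33.0% (30.3 to 35.9) in the control and 27.6% (25.1 to 30.3) in the library labelled knockout. That share was 36.4% and 27.2% among female nuclei, 35.1% and 26.8% among male ones, and 31.9% and 27.1% without called doublets. The intervals of the libraries overlap in each of these sets and, narrowly, over all nuclei. A share within the lineage falls when another stage grows, so these values alone do not say which stage changed in number. As shares of all nuclei, committed precursors were 1.46% and 1.41%, with overlapping intervals. Mature oligodendrocytes were lower in the library labelled knockout, with intervals apart over all nuclei and in male nuclei but overlapping in female ones. Without called doublets, which were 24.2% and 16.8% of mature nuclei, they were 6.08% (5.77 to 6.41) and 5.23% (4.93 to 5.54). These are still shares, and numbers of cells were not tested.

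**Figure D1:**
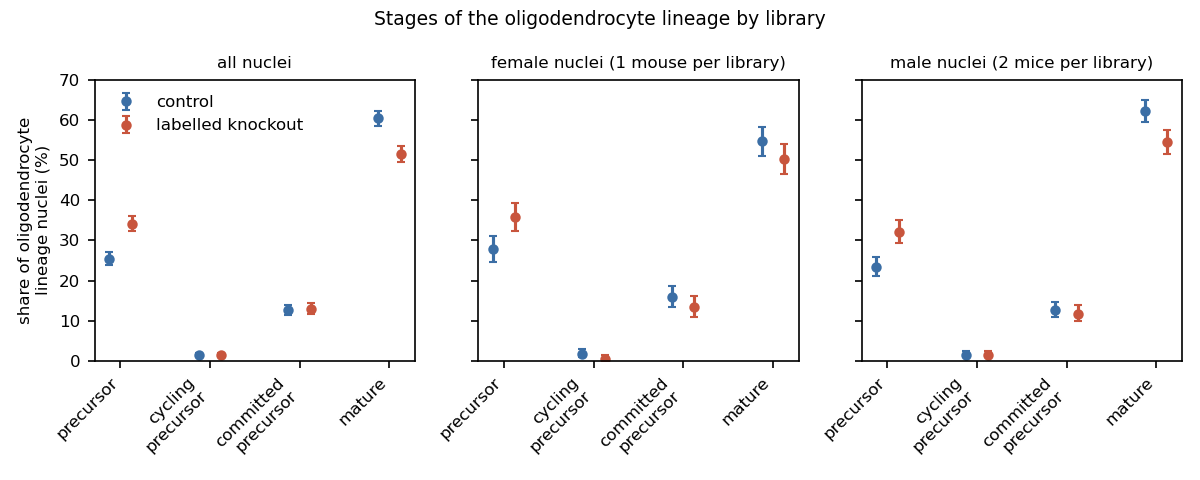
Share of oligodendrocyte lineage nuclei (%) in each stage, for all nuclei, female nuclei and male nuclei; points are the 2 libraries and bars exact 95% intervals for counting error. The precursor share is higher in the library labelled knockout in each panel, at 34.1% against 25.5% over all nuclei, and the mature share is lower.

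Cycling precursors, which met the same marker conditions but held 3 or more of the 5 cycle genes, were few. The control held 44 of them and the library labelled knockout 33, which is 5.61% (4.11 to 7.46) and 3.72% (2.57 to 5.19) of all precursors with them included. The intervals overlap. The share was 5.83% and 1.52% in female nuclei, the latter from 4 nuclei, and 5.92% and 4.47% in male nuclei. Among genes of G1 and S phase that the rule did not use, 8 of 19 reached the minimum of 50 UMIs and 10 CPM in the higher library. Their median log2 ratio was 0.27, beside 0.05 over all genes that reached the minimum, and 1 of the 8 passed 1.5-fold upward, where 2.41% of all genes did. Ccnd3, a D-type cyclin, had 71 and 115 UMIs, with a log2 ratio of 0.70 (0.26 to 1.15). Microglia nuclei held Ccnd3 at 1192 and 1360 CPM, and 63.4% and 65.2% of its UMIs in precursors lay in called doublets, without which 26 and 40 UMIs were left. The most abundant genes of the list were Cdk6, with 240 and 251 UMIs (0.07), Ccnd2, with 194 and 233 (0.27), and Cdk4, with 93 and 113 (0.29).

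The PEA3 factors Etv4 and Etv5, which are direct targets of Capicua, were the members of the Capicua target list with the largest differences over all members. Etv4 had 511 UMIs (90.8 CPM) in the control members and 907 (162 CPM) in the others, a log2 ratio of 0.83 (0.68 to 0.99). It was 0.87 in female nuclei, where the levels were 101 and 185 CPM, and 0.86 in male nuclei, with 94.9 and 172 CPM. Without called doublets the ratio was 0.66 (0.49 to 0.84). Etv5 had 367 and 653 UMIs, or 65.2 and 117 CPM, a log2 ratio of 0.84 (0.65 to 1.03). It was 0.77 in female and 0.64 in male nuclei, and 0.65 (0.43 to 0.87) without called doublets. Both genes were thus higher in the library labelled knockout in all members, in both sexes and without called doublets, by less than 2-fold. With an estimate of free RNA subtracted, whose profile was the summed RNA of each library, the ratios were 0.46 for Etv4 and 0.47 for Etv5. These were the lowest of 11 alternatives for each.

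The difference in Etv4 was spread over many nuclei. At least 1 UMI of Etv4 was found in 334 of 740 control precursors (45.1%) and in 511 of 854 (59.8%) of the library labelled knockout, although the latter nuclei were the shallower. At least 3 UMIs were found in 5.27% and 11%. With each nucleus thinned to 2000 UMIs, which left out 4 and 15 shallower nuclei, 20.2% (17.4 to 23.3) and 30.8% (27.6 to 34.0) held Etv4, and 14.1% and 21.1% held Etv5. In microglia nuclei, which should largely lack Etv4, 1.5% and 6.63% held it at median depths of 2169.5 and 1760 UMIs. At the thinned depth that share was 0.87% and 5.95%, well below the precursors' share but also higher in the library labelled knockout. The thinning left 690 and 437 microglia nuclei. The part of free RNA in the precursor shares was not tested further. Etv1 was held by 28.7% and 33.4% of thinned precursors, with overlapping intervals.

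The other targets differed less. Of the 16 genes of the list, 13 reached the minimum counts, and 10 of these lay above 0 and 3 below. Their median log2 ratio was 0.19, against 0.05 over all 9426 genes that reached the minimum. None of them passed 2-fold, where 0.541% of all genes did, and 2 passed 1.5-fold upward, where 2.41% of all genes did. Over all 16 genes, whatever their counts, 12 lay above 0 and 4 below, with a median of 0.25. Of all genes, 5703 of 9426 lay above 0. Without called doublets the median was 0.07, beside 0.03 over all genes, and with free RNA subtracted as well it was −0.03. The list's direction was known from these libraries before, so it is no independent evidence.

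Among the adaptors and Spred inhibitors, Shc3, a neuronal adaptor of receptor tyrosine kinases, had 943 and 1212 UMIs, with a log2 ratio of 0.37 (0.25 to 0.49) that was 0.10 (−0.05 to 0.24) without called doublets. Etv1 likewise had 999 and 1222 UMIs, with 0.30 (0.18 to 0.42) and 0.04 (−0.10 to 0.19). With called doublets left out and free RNA subtracted, both turned to below 0, at −0.07 for Shc3 and −0.06 for Etv1. Spred3 had 215 and 297 UMIs, with 0.47 (0.22 to 0.73), and 0.27 without called doublets. Spred2 had 0.19 and Spred1 0.10. Called doublets held 19.6% of the UMIs of Shc3 in the control and 34% in the other library, 20.8% and 34.3% of those of Etv1, and 22.3% and 33.3% of those of Spred3, a larger part in the library labelled knockout for each. The same was true of Etv4 and Etv5. Outside called doublets Etv4 kept 433 of 511 and 676 of 907 UMIs. Etv5 kept 284 of 367 and 439 of 653. Ccnd1, the cyclin D1 gene, had 231 and 303 UMIs, with a log2 ratio of 0.40 (0.15 to 0.65), and 0.33 (0.06 to 0.61) without called doublets.

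The Sprouty genes, which encode inhibitors induced by ERK, did not differ beyond counting error. Spry1 had 147 and 158 UMIs (log2 0.11, −0.22 to 0.45), Spry2 228 and 196 (−0.21, −0.49 to 0.07) and Spry4 160 and 155 (−0.04, −0.37 to 0.29). The signs of Spry1 and Spry2 differed between female nuclei, at −0.32 and −0.61, and male nuclei, at 0.53 and 0.22. Dusp6, an ERK phosphatase, had 29 and 49 UMIs (5.15 and 8.75 CPM), higher in the library labelled knockout, and stayed under the minimum. Without called doublets it had 23 and 40 UMIs, a log2 ratio of 0.81, the highest of the 16 targets in that set. It was not called, since it missed the minimum. Dusp4 had 10 and 14 UMIs and Dusp5 12 and 7. Shc4, an adaptor, had 1310 and 1192 UMIs (−0.13, −0.24 to −0.01), and the phosphatase Ptpn9 673 and 736 (0.14, −0.02 to 0.29).

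The RefSeq promoter table (build GRCm38.p6, 250 bases before to 50 after each start) was searched for the octamer bound by Capicua, as TGAATGAA, TGAATGGA, TCAATGAA or TCAATGGA on either strand. Of 32851 windows 1260 (3.84%) held one. Of the target list 11 of 16 genes matched the table, with 13 windows, of which 5 held one, those of Dusp6, Ptpn9, Shc4, Spred3 and Spry2. The 4 windows of Etv1 and Etv5 held none, which says only that these letters are not in those windows. Etv4, Spry4, Dusp4, Shc3 and Ccnd1 had no window to search. The 160 bases before the start are shown for 3 genes that hold the octamer in that stretch, each read 5′ to 3′ along the gene, with the octamer or its reverse complement in capitals, since their ratios ran from above to below 0. Shc4 held a second match after its start. Dusp6, which stayed under the minimum counts, also held the octamer in that stretch, from 24 bases before its start, and again after it. Its bases are not shown. Spred3 (minus strand of chr7:29168648-29168807, octamer from 10 bases before the start) had a log2 ratio of 0.47, Shc4 (minus strand of chr2:125724149-125724308, from 25 bases before) −0.13, and Spry2 (minus strand of chr14:105896820-105896979, from 54 bases before) −0.21.
Spred3: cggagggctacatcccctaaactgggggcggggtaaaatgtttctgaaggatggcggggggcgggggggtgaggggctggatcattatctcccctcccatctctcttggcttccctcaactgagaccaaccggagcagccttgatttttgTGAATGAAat
Shc4: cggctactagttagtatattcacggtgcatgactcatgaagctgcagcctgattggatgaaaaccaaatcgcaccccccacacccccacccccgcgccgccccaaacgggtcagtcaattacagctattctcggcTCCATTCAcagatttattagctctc
Spry2: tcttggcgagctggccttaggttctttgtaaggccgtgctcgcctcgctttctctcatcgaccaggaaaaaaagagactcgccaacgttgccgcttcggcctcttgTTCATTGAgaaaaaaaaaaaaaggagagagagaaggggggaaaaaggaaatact

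**Figure D2:**
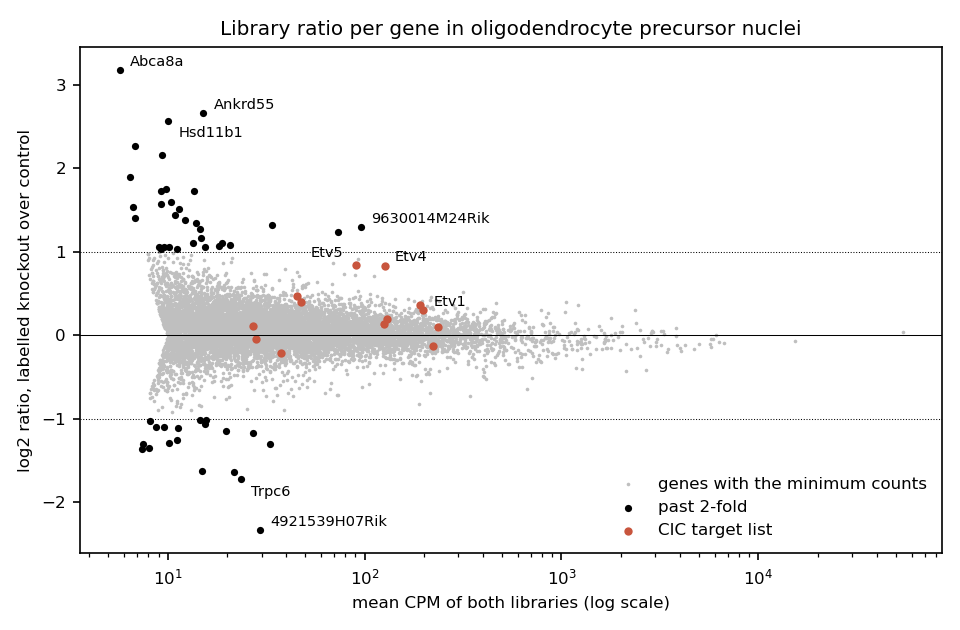
Log2 ratio of the library labelled knockout over the control against the mean CPM of both (log scale), 1 point per gene that reached the minimum counts in precursor nuclei. Black points are the 51 genes past 2-fold, 32 higher and 19 lower, and red points the Capicua target list, in which Etv4 and Etv5 lie highest, below the dotted 2-fold line.

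At the later stages of the lineage some of these genes stood further apart than in precursors and others did not. Over all 16 targets, whatever their counts, the median log2 ratio was 1.24 in committed precursors, from −1.21 to 3.73, with 12 genes above 0 and 4 below. In mature oligodendrocytes it was 1.02, from −1.20 to 4.21, again with 12 above and 4 below. In committed precursors 8 genes passed 2-fold upward, where 0.777% of all genes did, namely Etv1, Etv4, Etv5, Spred2, Spred3, Shc3, Ptpn9 and Ccnd1. In mature oligodendrocytes 7 passed, where 1.32% did, namely Etv1, Etv4, Etv5, Spred3, Shc3, Shc4 and Ptpn9. Some of these reached the minimum only in the library labelled knockout, Etv4, Etv5 and Spred3 at both stages and Ccnd1 in committed precursors, so the counts of genes passing are no support for a difference.

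Etv4 had 34 and 352 UMIs in committed precursors, a log2 ratio of 3.73 (3.24 to 4.30), and 50 and 669 in mature oligodendrocytes (4.21). Shc4, which lay at −0.13 in precursors, had 303 and 1155 UMIs in mature oligodendrocytes (2.41). Several of the others lay near or below 0 there: Spry2 had −0.39, Spred2 −0.04, Spry1 0.01, Dusp4 0.05, Dusp6 −0.57 and Dusp5 −1.20. Of these only Spred2 reached the minimum counts. The intervals of Spry2 (−0.76 to −0.03, from 180 and 98 UMIs) and Dusp5 (−2.51 to −0.14, from 30 and 9) lay below 0. Those of Spry1 (28 and 20 UMIs), Dusp4 (34 and 25) and Dusp6 (38 and 18) held 0, at counts too low for a difference to be read. Ccnd1 had 0.32, Spred1 0.82 and Spry4 2.35 (1.5 to 3.3), the last from 15 and 56 UMIs. Ccnd1 and Spry4 also stayed under the minimum counts.

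In other classes of nuclei the median over all 16 targets was 0.57 in astrocytes, 0.01 in inhibitory neurons and 0.39 in microglia. In astrocytes 3 of them passed 2-fold upward, where 0.315% of all genes did. Etv4 stood at 53.2 and 171 CPM there (log2 1.68), Etv5 had 1.09, and Spry4, which reached the minimum only in the library labelled knockout, 1.02. In inhibitory neurons, outside the Cre lineage, 1 passed, where 0.147% of all genes did. This was Etv4, with 19 and 118 UMIs, or 1.65 and 10.5 CPM, a log2 ratio of 2.63 (1.96 to 3.45). In microglia, also outside it, 2 passed, where 0.122% of all genes did. Etv4 had 18 and 83 UMIs there, or 6.41 and 37.4 CPM, a log2 ratio of 2.51 (1.80 to 3.37), and Shc3 28 and 61 UMIs (1.45). In these 2 classes each of these genes reached the minimum only in the library labelled knockout, so that nothing is read from how many passed. The part of free RNA in these ratios was not tested. Whether these ratios differ between classes could not be tested over samples.

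The stages were then divided more finely, by a split chosen after the values above had been seen. Precursors with 0 and with 1 committed-precursor gene detected form the first steps. Nuclei that met every other condition but held 2 or 3 of these genes follow, then committed precursors with at most 1 UMI of Pdgfra and Cspg4, and last mature oligodendrocytes. The control library had 442, 298, 48, 305 and 1754 nuclei in these steps and the library labelled knockout 542, 312, 61, 258 and 1290.

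In the control, Etv4 stood at 91.6 CPM in precursors with no committed gene, at 89.5 with 1, at 49.0 with 2 or 3, at 4.05 in committed precursors (11 UMIs) and at 2.67 in mature oligodendrocytes. In the library labelled knockout the levels at the same steps were 158, 169, 144, 138 and 50.0 CPM. The control level was thus lower at the step with 2 or 3 genes and fell further in committed precursors, while that of the library labelled knockout fell mainly in mature oligodendrocytes. Expressed within each library, committed precursors against precursors had a log2 ratio of −4.43 (−5.50 to −3.64) in the control and −0.23 (−0.44 to −0.03) in the library labelled knockout. Etv5 had −2.64 (−3.27 to −2.11) and −0.21 (−0.46 to 0.02), and Shc3 −3.23 (−3.70 to −2.83) and −0.42 (−0.61 to −0.24). Etv1 fell from 177 to 37.9 CPM in the control, and stood at 218 and 259 CPM in the library labelled knockout.

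Summed over the 16 genes, the list had 1388, 1386, 995, 429 and 303 CPM along the 5 steps in the control. In the library labelled knockout it had 1638, 1680, 1511, 1385 and 826 CPM. The log2 ratio between the libraries was 0.24 (0.18 to 0.29), 0.28, 0.60, 1.69 and 1.45. Without called doublets these were 0.08, 0.17, 0.77, 1.74 and 1.87. Not every gene followed this course. Spry1 stood at 26.1 CPM in precursors and 3.31 in committed precursors of the control, and at 28.2 and 1.61 CPM in the library labelled knockout, the last from 3 UMIs. Spry4 and Ccnd1 were also lower in committed precursors than in precursors in both libraries, but fell less in the library labelled knockout. The log2 ratios within the control and within that library were −5.69 and −2.05 for Spry4, and −3.90 and −1.55 for Ccnd1. Between the libraries, committed precursors had 3.60 (1.37 to 9.55) for Spry4, from 1 and 12 UMIs. For Ccnd1 they had 2.75 (1.63 to 4.24), from 7 and 34.

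**Figure D3:**
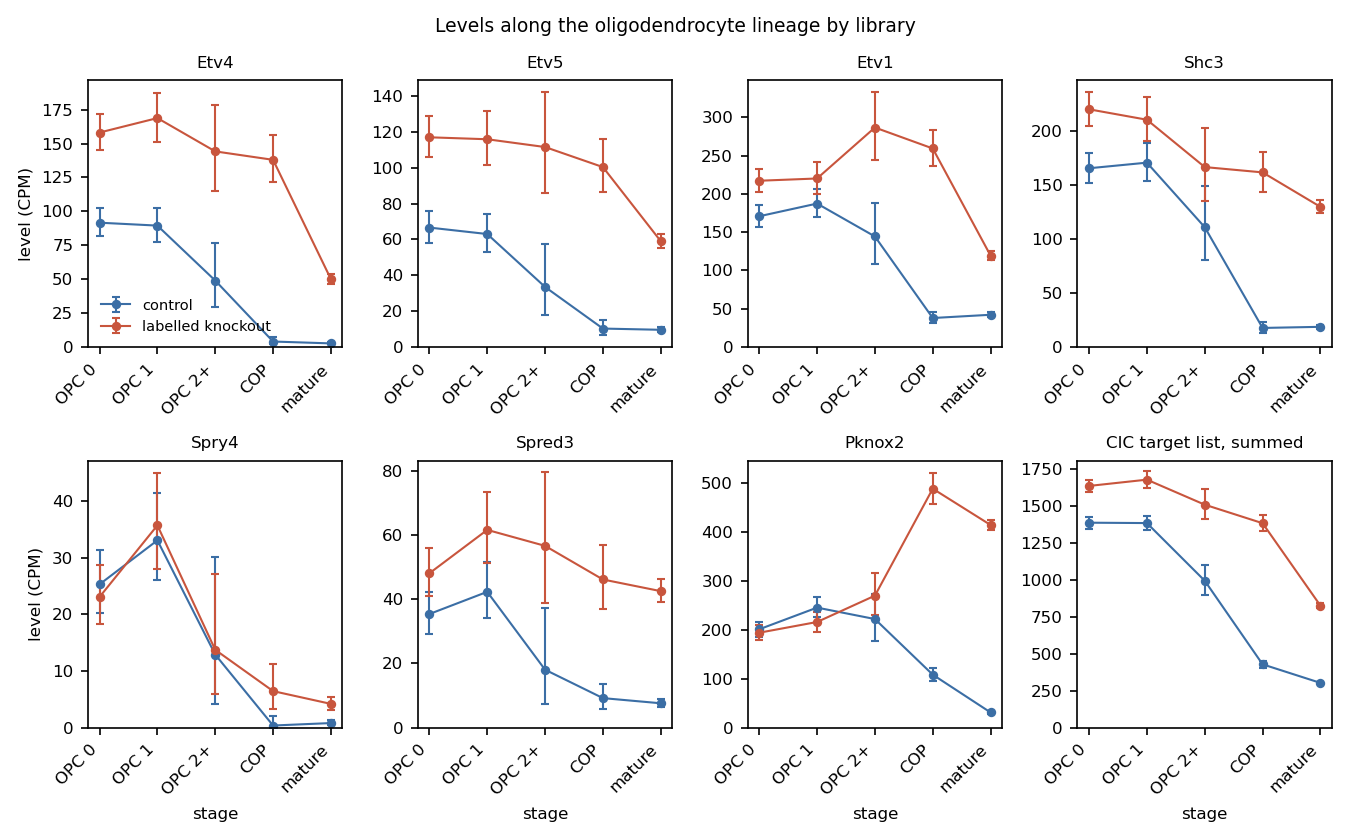
Levels in CPM along the lineage in the 2 libraries with exact Poisson 95% intervals; OPC 0 and OPC 1 are precursors with 0 and 1 committed-precursor gene, OPC 2+ nuclei with 2 or 3, COP committed precursors, and mature oligodendrocytes follow. In the control, Etv4, Etv5, Etv1 and Shc3 are high in precursors and low from COP on, and for these 4 genes the CPM of the libraries lie furthest apart at COP.

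Pknox2, Gm597 and Dkk2 stood far apart between the libraries in mature oligodendrocytes. They were chosen from earlier results of these same data, so this is no independent evidence. In precursors Pknox2 was close between the libraries, while Gm597 and Dkk2 were too shallow to tell. Pknox2, a TALE homeobox gene, had 1231 and 1130 UMIs in precursors, a log2 ratio of −0.12 (−0.23 to 0.00), and 579 and 5536 UMIs in mature oligodendrocytes, a ratio of 3.74. Its level was 219 and 202 CPM in precursors and 108 and 488 CPM in committed precursors with at most 1 UMI of Pdgfra and Cspg4, and in mature oligodendrocytes it was 30.9 and 414 CPM. In committed precursors the level was thus lower than in precursors in the control and higher than in precursors in the other library. Gm597 had 0 and 3 UMIs in precursors and Dkk2, a modulator of Wnt signalling, 9 and 17, so that no difference was detectable at this depth. In mature oligodendrocytes Gm597 had 2 and 793 UMIs and Dkk2 44 and 1022, each reaching the minimum only in the library labelled knockout.

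Across all genes, few differed by 2-fold. Of 9426 genes with the minimum counts, 32 were at least 2-fold higher in the library labelled knockout (0.339%) and 19 at least 2-fold lower (0.202%). Of these, 26 of the 32 reached the minimum only in the library labelled knockout and 12 of the 19 only in the control, so nothing is read from how many passed or kept their sign. The interval lay wholly past 2-fold for 11 and 4 of them. With nuclei thinned to 2000 UMIs 7 genes were higher and 4 lower, and with free RNA subtracted 72 and 71. Without called doublets 16 (0.191%) and 28 (0.334%) of 8372 genes passed, and 5 higher and 3 lower genes were called in both. Of the 32 higher genes 31 kept their sign without called doublets, and 18 of the 19 lower ones. The signs in female and in male nuclei were both that of all members for 29 of the 32 and 16 of the 19. In female nuclei alone 18 (0.369%) and 14 (0.287%) of 4873 genes passed, and in male nuclei 9 (0.142%) and 74 (1.17%) of 6346.

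The 5 genes higher in both calls were Dusp26, Camk1g, Myh14, Tmem132cos and Vgf, each of which reached the minimum only in the library labelled knockout. Dusp26, a dual-specificity phosphatase, had 25 and 85 UMIs, with a log2 ratio of 1.75 (1.12 to 2.48), found in 24 and 74 nuclei. Camk1g, a calmodulin-dependent kinase, had 35 and 117 UMIs in 31 and 101 nuclei, with 1.73 (1.19 to 2.34). Myh14, a non-muscle myosin heavy chain, had 33 and 95 UMIs, with 1.52 (0.95 to 2.15). These 3 genes had ratios of 1.16, 1.28 and 1.15 in female nuclei and 1.69, 1.87 and 2.14 in male nuclei.

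Tmem132cos, a noncoding RNA, had 38 and 99 UMIs, with a log2 ratio of 1.38 (0.84 to 1.97), with 1.83 in female and 1.13 in male nuclei. Only 7.89% and 9.09% of its UMIs lay in called doublets, and microglia nuclei held it at 0.356 and 0 CPM. Vgf, a neuropeptide precursor gene of neurons, had 44 and 112 UMIs in 42 and 105 nuclei, with 1.35 (0.84 to 1.89). In microglia nuclei Vgf stood at 18.5 and 44.1 CPM, above its 7.82 and 20 CPM in precursors and also higher in the library labelled knockout. The part of free RNA in the Vgf ratio was not tested.

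The genes with the largest ratios had low counts, much of them in called doublets. Abca8a, a lipid transporter gene, had 6 and 58 UMIs, with a log2 ratio of 3.18 (2.07 to 4.78), with 69% of the latter UMIs in called doublets. Ankrd55 had 23 and 147 UMIs, with 2.66 (2.04 to 3.39), of which 65.2% and 73.5% lay in called doublets. Hsd11b1, which regenerates active glucocorticoid, had 16 and 97 UMIs, with 2.57 (1.84 to 3.47) and 2.38 without called doublets. Its promoter window was the 1 of 26 windows of the higher genes that held the octamer (3.85%, beside 3.84% of all windows), and none of 12 windows of the lower genes held it. Hif3a, a hypoxia-inducible factor gene, had 13 and 64 UMIs, with 2.26 (1.43 to 3.29), and Bmp6, a bone morphogenetic protein, 19 and 86 (2.16), with 39.5% of the latter in 1 nucleus. Microglia nuclei held Hsd11b1 at 7.83 and 24.3 CPM and Hif3a at 15.7 and 28.4, above the precursors' 2.84 and 17.3 and 2.31 and 11.4 CPM. The noncoding 9630014M24Rik had the most UMIs of the 20 highest ratios, 311 and 761, with 1.30 (1.11 to 1.49), and 0.76 (0.52 to 1.01) without called doublets.

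Others among the 20 highest ratios were Gpc3, a glypican (1.90), Wdr95 (1.72), Slc17a6, a vesicular glutamate transporter of neurons (1.59), 4930467D21Rik (1.57), Csdc2 (1.54), Pdgfd, a PDGF ligand (1.44), Esr1, the estrogen receptor alpha (1.40), Gm5820 (1.32) and Car4, a carbonic anhydrase (1.27). Of these, Gpc3 lay below 0 in female nuclei, at −0.63, and Slc17a6, Esr1 and Car4 had higher CPM in microglia than in precursors in both libraries. Htr2c, a serotonin receptor of neurons, and Fgf1, a growth factor, also passed 2-fold and are named after their values were seen. Fgf1 had 75 and 159 UMIs, with a log2 ratio of 1.09, and 0.37 without called doublets.

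Most of the named lower genes had the larger part of their control UMIs in called doublets. The noncoding 4921539H07Rik had 276 and 54 UMIs, with a log2 ratio of −2.34 (−2.79 to −1.92), with 84.1% and 85.2% of these in called doublets, and 4.33 with free RNA subtracted. Trpc6, a cation channel, had 203 and 61 UMIs, with −1.72, but 14 and 19 UMIs and 0.45 without called doublets. Rspo2, a secreted Wnt agonist, had 186 and 59 UMIs, with −1.64 (−2.10 to −1.22), and −2.85 (−3.85 to −2.05) without called doublets, where 98 and 13 UMIs were left. Its control UMIs came from 43 of 740 nuclei, 16.1% of them from 1. Npsr1, a neuropeptide receptor (−1.29), came from 18 and 17 nuclei, and lay at 0.99 in male nuclei. Itpka, an inositol trisphosphate kinase of neurons, had −1.14, with 72.1% and 79.7% of its UMIs in called doublets. The third gene lower in both calls, beside Rspo2 and Npsr1, was Gm49708.

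The remaining named lower genes had log2 ratios from −1.36 to −1.09, and were ENSMUSG00000120124 (−1.36), Scube1 (−1.35), Gm10754 (−1.30), Anxa11 (−1.30), Rad51ap2 (−1.25), Ctxnd1 (−1.17), 2310002F09Rik (−1.10), Ano5 (−1.10) and Gm32014 (−1.09). In female nuclei ENSMUSG00000120124 and Scube1 had positive ratios, 1.40 and 0.12. The ratio of 2310002F09Rik was 1.11 with free RNA subtracted, 1.06 with called doublets left out as well, and 0.10 thinned without called doublets.

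**Figure D4:**
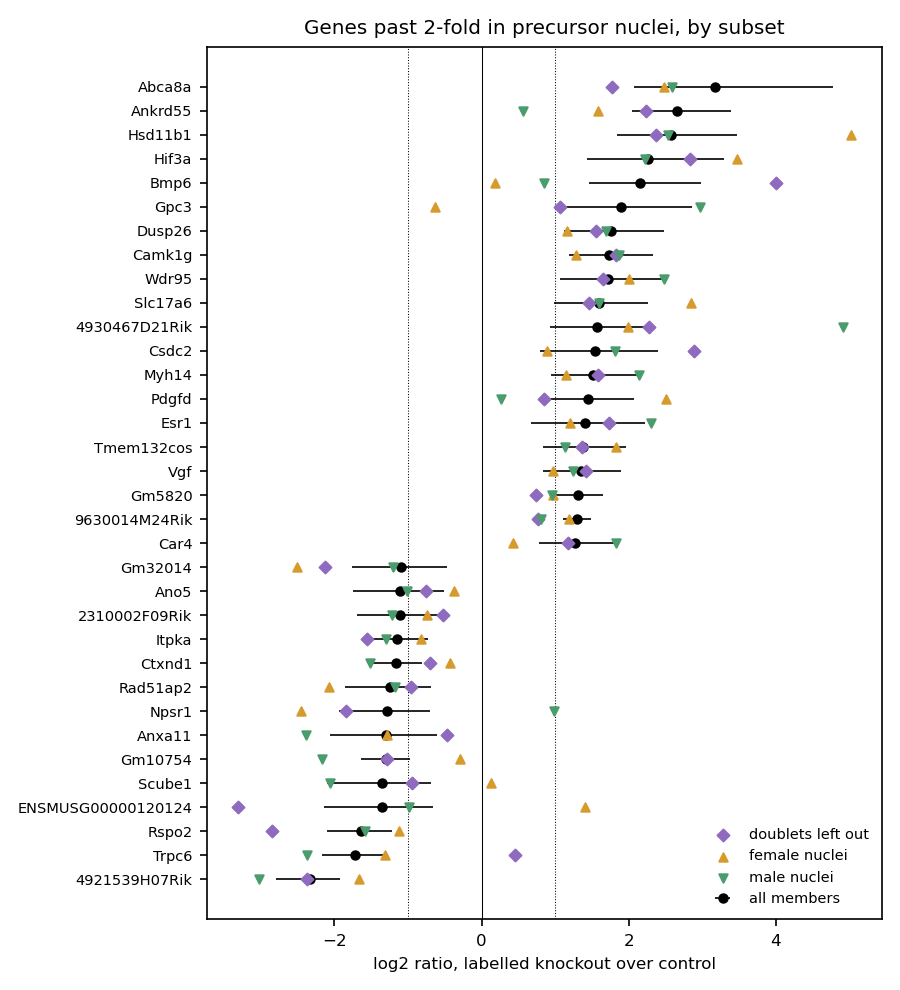
Log2 ratio of the library labelled knockout over the control for named genes past 2-fold, the 20 highest and the lower ones, in all members (black, with 95% counting intervals), without called doublets, in female and in male nuclei. The sets share nuclei and most of these genes reached the minimum in 1 library only, so the points are a description; Trpc6, at −1.72 in all members, lies at 0.45 without called doublets.

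The identity genes of precursors that the rule did not use differed little. All 20 of the list reached the minimum, the median log2 ratio was 0.03, the lowest −0.20 and the highest 0.49, and none passed 1.5-fold in either direction, where 3.48% of all genes did. Ptprz1, a receptor phosphatase, had 13773 and 14351 UMIs (0.07), Tnr, tenascin-R, 18563 and 18730 (0.02) and Pcdh15, a protocadherin, 18653 and 17133 (−0.11). In male nuclei all 18 that reached the minimum lay above 0, with a median of 0.22, while 3515 of all 6346 genes did, with a median of 0.03. In female nuclei 10 of 18 lay above 0 and 8 below, with a median of 0.003. Of all 4873 genes there 2816 lay above 0, with a median of 0.05. Among the genes with the most UMIs in precursors were Malat1, Lsamp, Pcdh9, Lrrc4c, Lhfpl3, Opcml, Csmd1, Nlgn1 and Lrp1b. Apart from the nuclear RNA Malat1, most encode adhesion or synaptic proteins. Their ratios ran from −0.14 for Csmd1 to 0.04 for Malat1.

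Genes of differentiation were also close between the libraries. Of 22 genes that the rule did not use, 17 reached the minimum, with a median of 0.05, 11 above 0 and 6 below, and none past 1.5-fold. Bcas1, which marks early oligodendrocytes, had 1884 and 2067 UMIs (0.14), the kinase gene Fyn 1814 and 1872 (0.05) and Itpr2, an early differentiation marker, 2445 and 2325 (−0.06). In committed precursors the same list had a median of −0.17, with 17 of 18 genes below 0, where 3355 of all 7598 genes lay below 0 and the median was 0.04. In mature oligodendrocytes 19 of 22 lay above 0, with a median of 0.10, beside −0.07 over all genes. Among inhibitors of differentiation 11 of 14 reached the minimum, the median was 0.07, and none passed 1.5-fold. Its 3 most abundant genes were Ptprs (0.05), Tgfbr1 (0.30, and −0.02 without called doublets) and Lingo1 (−0.13).

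Of the growth factor receptors upstream of ERK, 11 of 16 reached the minimum, with a median of 0.06. Egfr, the epidermal growth factor receptor, passed 2-fold, where 0.339% of all genes did upward, with 41 and 84 UMIs, and its log2 ratio stood at 1.03 (0.49 to 1.62). Egfr reached the minimum only in the library labelled knockout, so nothing is read from its call. The ratio was 0.84 (0.14 to 1.59) without called doublets, 1.26 in female and 0.25 in male nuclei, and microglia held Egfr at 18.9 and 27 CPM, above its 7.28 and 15 CPM in precursors. Erbb4, a neuregulin receptor, had 15837 and 16379 UMIs (0.06), and the neurotrophin receptors Ntrk2 and Ntrk3 had −0.05 and −0.13. Of 17 genes of the Ras and ERK core 14 reached the minimum. Their median was 0.02, from −0.27 to 0.33, with Nf1 at 0.09 and Braf at −0.08. None of the 14 passed 1.5-fold, where 3.48% of all genes did.

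Genes of glutamate and GABA receptors, through which precursors receive synaptic input, had mostly ratios below 0. Of 26 genes 25 reached the minimum, 20 of them below 0 and 5 above, with a median of −0.17 against 0.05 over all genes. Without called doublets 20 of 25 lay below 0 and the median was −0.10. In mature oligodendrocytes 20 of 23 lay below 0 (median −0.61), in astrocytes 20 of 25 (−0.31) and in microglia 20 of 22 (−0.35). The medians lay nearer 0 in committed precursors, with 17 of 25 below (−0.04), and in inhibitory neurons, with 18 of 26 (−0.03). Over all genes the medians in these 5 classes lay between −0.07 and 0.04. In precursors none passed 2-fold and 2 passed 1.5-fold downward, where 1.07% of all genes did. Grin2a, an NMDA receptor subunit, had 4581 and 2923 UMIs (814 and 522 CPM), a log2 ratio of −0.64 (−0.71 to −0.57), with 84.0% and 86.2% of its UMIs in called doublets. Without these the ratio was −0.84 (−1.02 to −0.66), from 731 and 402 UMIs. Grin2a passed 2-fold downward in female nuclei alone, at −1.19, and in male nuclei alone, at −1.14. Gabra5, a GABA-A receptor subunit, had 320 and 205 UMIs, with −0.63 (−0.89 to −0.38). The most abundant receptors lay nearer 0: Grm5 had −0.16 (0.00 without called doublets), Gria2 −0.17 and Grik2 −0.08. The summed excitatory neuron markers had a log2 ratio of −0.25 (−0.32 to −0.18) in the same nuclei, and −0.43 (−0.57 to −0.28) without called doublets. Their part in the receptor ratios was not tested.

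Of 22 voltage-gated and potassium channel genes all reached the minimum, with a median of −0.07. Kcnj16, an inward rectifier potassium channel, had 187 and 294 UMIs, with a log2 ratio of 0.66 (0.39 to 0.93). It was 0.64 (0.35 to 0.94) without called doublets, 0.85 in female and 0.81 in male nuclei, with few of its UMIs in microglia (4.63 and 5.85 CPM). It was the 1 gene of the 22 past 1.5-fold, where 3.48% of all genes were. Kcnd2, an A-type channel, had −0.12, its partner Kcnip4 −0.16, and Kcnq5 −0.06 (−0.54 without called doublets). Of 39 guidance and adhesion genes 36 reached the minimum, with a median of 0.03. Unc5d, a netrin receptor, had 478 and 778 UMIs, with a log2 ratio of 0.71, 0.31 without called doublets and 1.65 in female nuclei alone. Efna5, an ephrin, had 250 and 152 UMIs (−0.71), of which 26.4% and 16.4% lay in 1 nucleus. It passed 2-fold downward without called doublets, with 163 and 48 UMIs (−1.73, −2.24 to −1.27), in female nuclei, with 84 and 14 (−2.73), and in male nuclei, with 103 and 18 (−2.33). Of all genes 0.334%, 0.287% and 1.17% passed downward in these sets, which overlap in part. In each set Efna5 reached the minimum only in the control, so nothing is read from these calls. Dcc, a netrin receptor abundant in precursors, had 11874 and 14522 UMIs (0.30, and 0.13 without called doublets), Unc5c −0.10 and Sema6d −0.11. Of 19 matrix genes 14 reached the minimum, with a median of 0.03. Gpc5 had 0.05, Mmp16 −0.12 and Gpc6 −0.07. Of 13 immediate early and stress genes 3 reached it, Jun (−0.17), Jund (−0.12) and Nr4a1 (0.07).

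**Figure D5:**
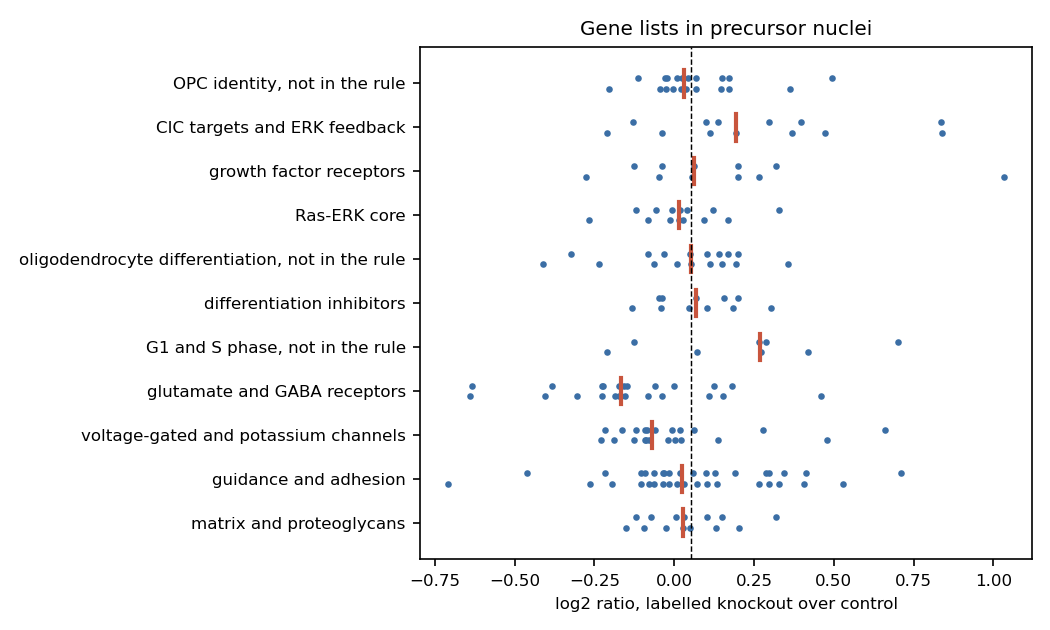
Log2 ratio of the library labelled knockout over the control for the genes of each list that reached the minimum counts (blue points, 1 per gene), with the list's median (red bar) and the median of all genes, 0.05 (dashed line). Etv4 and Etv5 are the 2 highest points of the Capicua target list, and most receptor genes lie below 0.

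Precursor nuclei, called doublets included, varied among themselves beyond counting noise in some genes. Over 5487 genes with a mean of at least 0.05 UMIs in nuclei thinned to 2000 UMIs, the median variance over mean was 1.07 for the control and 1.06 for the other library, where 1 is counting noise alone. Ranked by the lower value of the 2 libraries, Kcnip4, which encodes a potassium channel partner abundant in neurons, came first with 15 and 16, followed by Gm32647 (12.8 and 16.1), Malat1 (8.45 and 9.05), Epha6, Cntnap2, Tenm2, Lingo2, Nkain2, Galntl6 and Hs3st4. Without called doublets Kcnip4 had 8.42 and 6.19, and Malat1 7.48 and 8.43. Gm32647 had 1.18 and 23.4 then, and was found in 6.08% and 5.62% of all members. Leaving called doublets out took Epha6 from 8.32 and 8.95 to 4.38 and 2.75, and Hs3st4 from 5.33 and 4.23 to 6.16 and 5.25. The share of Kcnip4 UMIs that lay in called doublets was 77.6% and 80.4%.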

How the data were processed

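Nuclei were counted in 2 droplet libraries (10x Genomics, 3′ chemistry), 1 per genotype. The deposited files hold whole-number counts of UMIs per gene and nucleus, made with Cell Ranger 8.0.1 on mm39, per the submitters' processing notes. From these, nuclei with at least 500 genes and at most 5% mitochondrial UMIs were kept, the marker rule was applied, and counts were summed per library with numpy 2.4.6, pandas 2.3.3 and scipy 1.17.1. Doublets were called with Scrublet in scanpy 1.11.5 (expected rate 0.1) and kept unless stated. Ratios are log2 of CPM with 0.5 UMI added, with exact conditional binomial 95% intervals. A gene was called past 2-fold at 50 UMIs and 10 CPM in the higher library. Sex was read as female from 2 or more Xist UMIs without any of 4 Y-linked genes, and as male from 1 or more of the latter without Xist. Other nuclei were left uncalled. The ratio and call were tested only on simulated sums with counting noise alone. These held no doublets, free RNA or spread between nuclei, so they do not show how the intervals and calls fare with those. Named genes were the 20 highest and 15 lowest past 2-fold, all Capicua targets and partners, and per other list those past 1.5-fold and the 3 most abundant, with the 10 most abundant and most variable genes. Some of these are not reported here. The split of precursors by committed genes and 2 combined alternatives were chosen after values had been seen. Members, lists and rules were chosen with earlier results of these data known. Microglia nuclei needed, as chosen after seeing the data, 0.2% of UMIs in 4 marker genes.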

Additional observations from a re-analysis of the deposited data

Results flagged for a closer look

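In 2 genes female and male nuclei differed between the libraries in opposite directions, each by at least 2-fold with 20 or more UMIs in the higher library. Vwc2l had a log2 ratio of 1.61 (0.51 to 3.02) in female nuclei, from 8 and 29 UMIs, and of −1.06 (−1.53 to −0.62) in male nuclei, from 138 and 59. Socs2 had 1.27 (0.03 to 2.82) in female nuclei, from 7 and 20 UMIs, and −1.21 (−2.17 to −0.37) in male nuclei, from 42 and 16. Both were picked for their opposite signs from a search of all genes other than mitochondrial and sex-linked ones. Vwc2l in female nuclei and Socs2 in both sexes reached 20 UMIs in 1 library only, so nothing is read from these calls. The difference between the sexes was not tested, since each library holds 1 female and 2 male mice.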

How the results depend on the processing

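No paired analysis was possible because each group is 1 library, and no replicate could be left out. The count of genes higher by 2-fold, 32, was 21 with TMM factors, 16 without called doublets, 7 thinned to 2000 UMIs per nucleus, 5 with both, 18 in female and 9 in male nuclei, 19 under a stricter marker rule, 72 with free RNA subtracted, 174 at a minimum of 20 UMIs and 227 at 1.5-fold. The count lower, 19, was 4 thinned, 3 thinned without called doublets, 74 in male nuclei, 38 under the stricter rule, 71 with free RNA subtracted, 79 at 20 UMIs and 101 at 1.5-fold. TMM and median-of-ratios factors shifted all ratios by −0.07 and −0.04. The median of the Capicua target list was −0.0299 with free RNA subtracted and called doublets left out, and between 0.07 and 0.30 in its other alternatives. Ratios that turned sign were, with free RNA subtracted, Shc3 (−0.057), 4921539H07Rik (4.33) and 2310002F09Rik (1.11). With called doublets left out as well they were Etv1 (−0.0612), Shc3 (−0.0655) and 2310002F09Rik (1.06). Without called doublets Trpc6 had 0.45, and thinned 1.40, and 2310002F09Rik thinned 0.10. In female nuclei Gpc3 (−0.63), ENSMUSG00000120124 (1.40) and Scube1 (0.12) turned, and in male nuclei Npsr1 (0.99). The free RNA estimate, 42.6% and 41.6% of members' UMIs, takes every UMI of excitatory neuron markers as free, doublets included, and was 17.8% and 15.2% without called doublets. Its profile was the summed RNA of all deposited barcodes of each library, members included, and not that of empty droplets. Counts that fell below 0 were set to 0. Values with free RNA subtracted thus rest on no measured profile of free RNA. Genes left with at most 3 UMIs in both libraries under an alternative were given no ratio there. The cause was not tested. Of 446 values of 42 named genes under 11 alternatives, 288 moved by less than their counting interval, 145 by more without a change of sign and 13 turned sign.

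The precursor share was 1.86% and 2.01% (control first) under the stricter rule, 1.95% and 2.48% when thinned, and 3.46% in male nuclei of the library labelled knockout. Within the lineage, precursors were 27.1% of the control without called doublets, 27.7% in female and 23.5% in male nuclei, and 32.2% in male nuclei of the library labelled knockout. Committed precursors were 15.9% in female control nuclei, and 8.32% and 9.70% when thinned. Mature oligodendrocytes were 58.4% without called doublets, 54.7% in female, 62.3% in male and 65.8% in thinned control nuclei, and 54.5% in male and 56.8% in thinned nuclei of the library labelled knockout. The stricter rule kept 465 and 464 nuclei. Genes under 50 UMIs in precursors were not called. Among them Dusp4, Dusp5, Gm597 and Dkk2 were too shallow for a difference to be read, while Dusp6 was higher in the library labelled knockout.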
